A study of Neurospora crassa with 6 samples.

Results

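Vegetative hyphae of the Δ*mak-2* mutant of *Neurospora crassa*, a filamentous ascomycete, were compared with those of the wild type, gene by gene, from RPKM values, in which a gene's reads are scaled to its transcript model length and to library size. All table entries with RPKM above 10 in at least 1 of the 2 libraries were taken, which gave 4917 of 9872 entries. Of these, 4217 were above 10 RPKM in both libraries, 355 only in the mutant and 345 only in the wild type. The mutant is labelled delta_mak-2 and lacks the MAP kinase gene *mak-2*, and both strains were grown as shaken liquid cultures for 22 h at 28°C in Vogel's medium. The series holds 6 libraries, made from the wild type and the mutants delta_mak-2 and delta_mak-1 at the vegetative stage and at the start of protoperithecium formation (3.5 days at 25°C in the dark). Each library was made from pooled RNA of 3 repeats, so each strain is represented by 1 library per stage, and no difference below could be tested against the spread between cultures. The *mat A* genes *matA-1*, *matA-2* and *matA-3* were at 0 in all 6 libraries.

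MAK-2 is the last kinase of the pheromone response (PR) pathway. In this cascade NRC-1 activates MEK-2, MEK-2 activates MAK-2, and HAM-5 serves as the scaffold. In growing hyphae of *N. crassa* the pathway is known for the signalling between cells that precedes their fusion, and mutants without it do not fuse, make short aerial hyphae and do not form fertile female structures. The transcription factors PP-1 and ADV-1 act downstream of it. The comparison asks which transcripts differ in hyphae without this kinase before any sexual development has been induced.

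The Δ*mak-2* library had 2866325 mapped reads and the wild-type library 2602076, as recovered from the steps of the RPKM values, and the other 4 libraries had 3300928 to 3668046. A gene of the median model length, 1365 bases, had about 39.1 reads at 10 RPKM in the mutant and 35.5 in the wild type. A gene is called raised here where the ratio of the mutant to the wild type was above 2, and lowered where it was below 0.5. Each ratio is given with its exact (Clopper-Pearson) 95% interval from the 2 read counts, which covers counting error only and not the variation between cultures. The genes just inside the limit of 10 RPKM were *qa-Y*, with 7.57 RPKM in the mutant and 10.0006 in the wild type, and NCU07869 and NCU02965, with 10.005 and 10.007 RPKM in the mutant, and those just outside were NCU04205, NCU09733 and NCU05631, with higher values of 9.996, 9.996 and 9.99 RPKM. A ratio for which 1 of the 2 libraries had no read is given as the upper or lower limit of its exact interval.

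Transcripts of *mak-2* were absent from the mutant, with 0 reads in Δ*mak-2* hyphae against 189 reads (68.2 RPKM) in wild-type hyphae, at most 0.0179 of the wild-type level. They were also at 0 in the mutant at the protoperithecial stage, against 586 RPKM in the wild type. One further gene behaved in the same way. *mus-51* encodes the KU70 protein of DNA end joining and is commonly deleted in the recipient strains used for gene replacement in *N. crassa*. It had 0 reads in Δ*mak-2* hyphae, against 77 reads (15.2 RPKM) in the wild type, at most 0.0445 of the wild-type level. It was also at 0 in Δ*mak-2* at the protoperithecial stage, against 16.4 RPKM in the wild type, while the Δ*mak-1* mutant had 21.3 RPKM in hyphae. These 2 were the only genes with no read in one of the 2 vegetative libraries and at least 50 in the other. The libraries labelled delta_mak-2 therefore lacked transcripts of both genes, and effects of the 2 losses cannot be told apart here.

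Next to *mak-2* the reads differed as well. NCU02392, whose locus number adjoins that of *mak-2* but which was not matched in the RefSeq annotation, had 31 reads (36.8 RPKM) in Δ*mak-2* and 0 in the wild type, at least 7.18-fold higher. NCU02394, the adjacent annotated gene on the other side, had 13 reads in Δ*mak-2* and 1 in the wild type and stayed below 10 RPKM in both, and its ratio of 11.8 had an interval of 1.77 to 502. Both were singled out after their values were seen. Among the 5 annotated genes on each side of *mak-2*, only NCU02388 was called, with 8.70 RPKM in Δ*mak-2* against 21.5 in the wild type, and NCU02390 lay just under the threshold, with 3076 against 1552 RPKM and a ratio of 1.98. None of the 5 annotated genes on either side of *mus-51* had a ratio above 2 or below 0.5.

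Most hyphal transcripts were at like levels in the 2 strains. The median ratio over the 4917 genes was 1.08, with 25% of the ratios above 0 at or below 0.821 and 75% at or below 1.41. In Δ*mak-2* hyphae 315 genes were lowered (6.41% of those compared) and 357 were raised (7.26%), together 13.7%. The whole counting interval lay beyond the threshold for 152 lowered genes (3.09%) and 117 raised genes (2.38%). Scaling the libraries by the median of ratios (factor 1.03) gave 344 lowered and 331 raised genes, scaling by the upper quartile (1.07) gave 386 and 286, and setting β-tubulin (*bml*) equal (0.843) gave 217 and 656. The share of raised genes among those called thus moved from 53.1% with the deposited values to 42.6% with the upper quartile and 75.1% with β-tubulin, so the balance of raised and lowered genes depends on the scaling, and on the log2 scale these last 2 scalings shifted all ratios by 0.10 and 0.25. Few reads lay behind many calls: among the 1309 genes whose higher value was 10 to 20 RPKM, 98 were lowered and 104 raised, but the whole interval was beyond the threshold for only 24 and 19 of them.

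**Figure D1:**
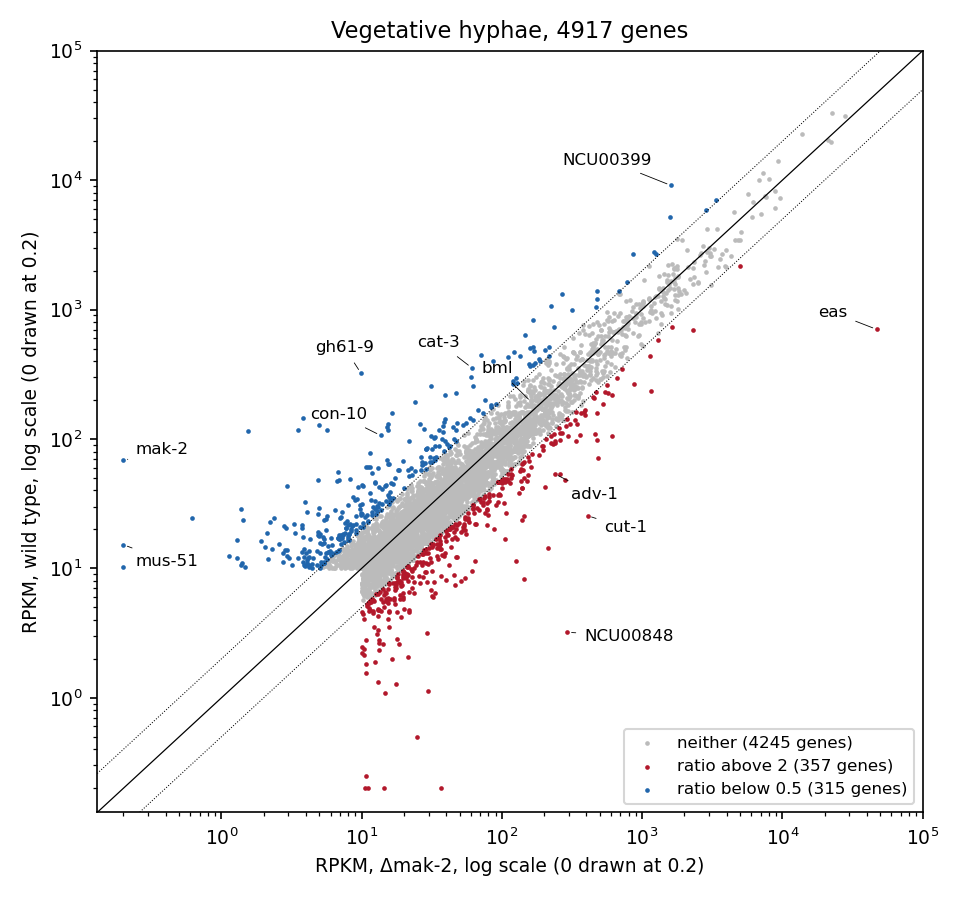
RPKM in Δ*mak-2* (horizontal axis) against the wild type (vertical axis) in vegetative hyphae for the 4917 genes, both on log scales with 0 drawn at 0.2. The solid line marks equal values and the dotted lines 2-fold differences; *eas* lies farthest out among the abundant genes, with 47036 RPKM in the mutant and 703 in the wild type, and *mak-2* and *mus-51* lie at 0 in the mutant.

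The ratios also moved with the length of the gene model. Genes of over 300 and up to 500 bases had a median ratio of 1.34 and 18.1% of them were raised, whereas genes above 3000 bases had a median ratio of 0.829 and 2.65% of them were raised. The same order, with a smaller range, was seen for the Δ*mak-2* ratios of these genes at the protoperithecial stage (medians 1.13 and 0.884), and the opposite order for the Δ*mak-1* ratios in hyphae (1.13 and 1.40), which share the wild-type library. Dividing each ratio by the median of its length class gave 391 lowered and 237 raised genes. The part that length has in any single ratio was not tested, and ratios near 2 in short genes are to be read with these medians.

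**Figure D2:**
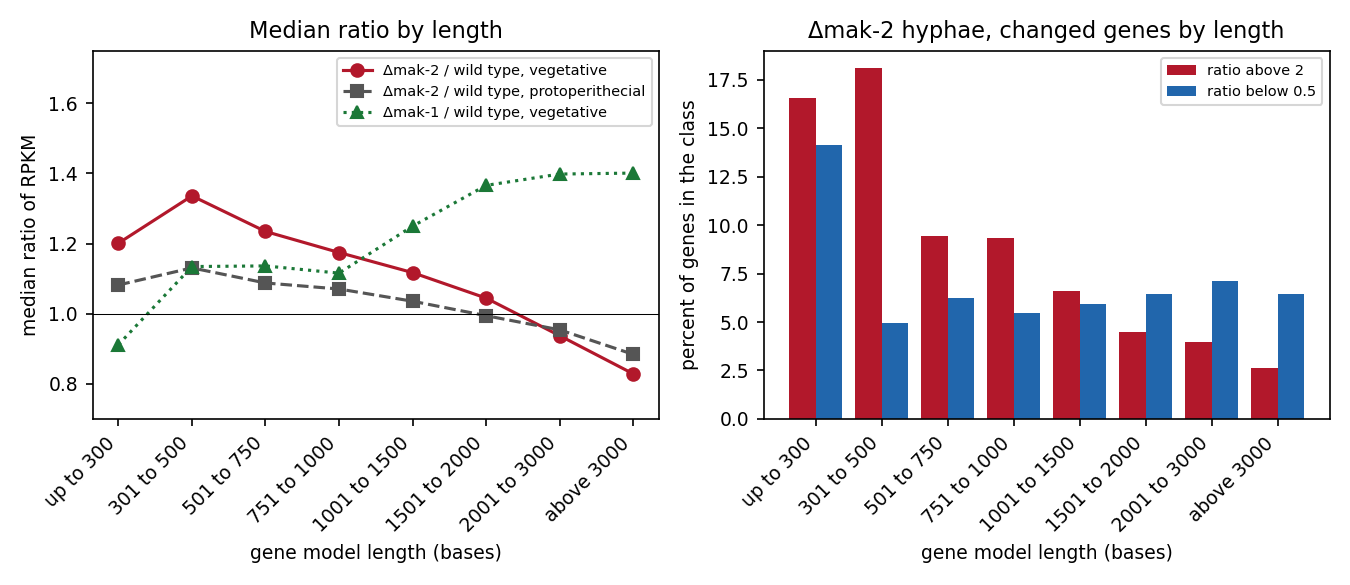
Left, median ratio of RPKM in 8 classes of gene model length (bases) for Δ*mak-2* over wild type in vegetative hyphae, the same strains at the protoperithecial stage, and Δ*mak-1* over wild type in vegetative hyphae. Right, percent of genes in each class with a ratio above 2 or below 0.5 in Δ*mak-2* hyphae; raised genes make up 18.1% of the class of over 300 and up to 500 bases and 2.65% of the class above 3000 bases.

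Within the PR pathway neither kinase upstream of MAK-2 passed the threshold. *nrc-1*, the MAP kinase kinase kinase, had 14.9 RPKM in Δ*mak-2* and 15.5 in the wild type, a ratio of 0.957 (0.732 to 1.25). *mek-2*, the MAP kinase kinase, had 13.96 and 16.8 RPKM, a ratio of 0.833 (0.638 to 1.09). The scaffold gene *ham-5* appears under 2 table entries, and the longer had 19.6 RPKM in Δ*mak-2* against 11.4 in the wild type, a ratio of 1.73 (1.35 to 2.21). The 2 transcription factors downstream differed from each other. *pp-1*, the homologue of yeast Ste12, had 10.1 RPKM in Δ*mak-2* and 13.5 in the wild type (ratio 0.745, 0.539 to 1.03), whereas *adv-1*, a zinc cluster regulator, had 237 RPKM in Δ*mak-2* and 53.8 in the wild type, raised 4.41-fold (3.99 to 4.88) on 2303 against 474 reads. At the protoperithecial stage *adv-1* had 84.1 RPKM in Δ*mak-2* and 80.4 in the wild type. Of the 9 pathway genes compared, 1 was raised (*adv-1*, 11.1%, against 7.26% of all genes compared) and 1 lowered (*mak-2* itself, 11.1%, against 6.41%). The list median was 0.833, and 9 genes are too few for their counts to be set apart from those shares.

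The other MAP kinase pathways had few genes above 10 RPKM, too few to set their counts apart from the 13.7% called among all genes compared. In the cell wall integrity cascade none of 5 genes was called, and *mak-1*, its MAP kinase, had 39.98 RPKM in Δ*mak-2* against 42.1 in the wild type, a ratio of 0.951 (0.798 to 1.13). In the osmosensing (OS) pathway 1 of 4 genes was raised (25%, against 7.26% of all genes compared). *hpt-1*, the histidine phosphotransfer protein of that relay, had 475 RPKM in Δ*mak-2* and 159 in the wild type, a ratio of 2.99 (2.66 to 3.38). The MAP kinase gene *os-2* had 91.0 and 64.8 RPKM, a ratio of 1.41 (1.19 to 1.66).

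Hyphal fusion genes encode proteins that act in the recognition and merging of hyphae. Of 10 cell fusion genes above 10 RPKM, 3 were raised (30%, against 7.26% of all genes compared) and none lowered (against 6.41%), with a list median of 1.23. *ham-6*, which encodes a small membrane protein needed for fusion, had 88.2 RPKM in Δ*mak-2* against 20.3 in the wild type, a ratio of 4.34 (2.75 to 7.13), on a gene model of 435 bases. *ham-9* had 64.1 and 22.1 RPKM, a ratio of 2.90 (2.41 to 3.51). *cse-1*, a calcium sensor gene, had 78.0 and 32.1 RPKM, a ratio of 2.43 (1.82 to 3.26), so its interval reached below the threshold. The same 3 genes stood at 0.769, 1.62 and 0.791 times the wild type once protoperithecia were induced, in the order given. All 3 stayed above 2 under each of the 4 other scalings.

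The largest change among abundant transcripts was in *eas*, the clock-controlled and light-responsive gene of the hydrophobin that coats conidia and makes them water-repellent. Its level was 47036 RPKM in Δ*mak-2* hyphae (102194 reads) against 703 RPKM in wild-type hyphae (1386 reads), a ratio of 66.9 (63.5 to 70.6). It was the most abundant transcript of the Δ*mak-2* library and took 3.57% of its mapped reads (3.54 to 3.59, exact 95% interval), against 0.0533% (0.0505 to 0.0561) in the wild type. Once protoperithecia were induced, *eas* had 6465 RPKM in Δ*mak-2* and 61.9 in the wild type, a ratio of 104. In Δ*mak-1* hyphae its level was 2504 RPKM, 3.56 times the same wild-type library. A near neighbour of that gene on the chromosome, NCU08455, had 1158 RPKM in Δ*mak-2* and 234 in the wild type, a ratio of 4.95 (4.38 to 5.61).

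Other conidiation genes differed in both directions. Among 12 genes of the list 3 were raised, *eas* included (25%, against 7.26% of all genes compared), and 2 were lowered (16.7%, against 6.41%), and with upper-quartile scaling 2 were raised and 3 lowered. *acon-3*, a regulator required for conidiophore formation, had 21.8 RPKM in Δ*mak-2* against 4.62 in the wild type, a ratio of 4.72 (3.06 to 7.56), and *rca-1*, a MYB-type regulator, had 98.4 against 47.7 RPKM, a ratio of 2.07 (1.73 to 2.47), which was below 2 with upper-quartile scaling (1.92) and after division by length class (1.85). *fl*, the main activator of conidiation, had 64.7 and 53.0 RPKM, a ratio of 1.22 (1.06 to 1.41). The conidial proteins *con-6* and *con-10* were lowered: *con-10* had 13.6 RPKM in Δ*mak-2* against 106 in the wild type (0.128, 0.0780 to 0.201), and *con-6* had 15.3 against 64.5 RPKM (0.237, 0.152 to 0.360). *con-8* had 1701 and 1431 RPKM, a ratio of 1.19 (1.14 to 1.24). The conidial markers *eas*, *con-6*, *con-8*, *con-10* and *con-13* summed to 48770 RPKM in Δ*mak-2* and 2307 in the wild type, but without *eas* to 1734 and 1604 RPKM. The sum without *eas* was nearly all *con-8*, so it does not show the lower *con-6* and *con-10*.

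**Figure D3:**
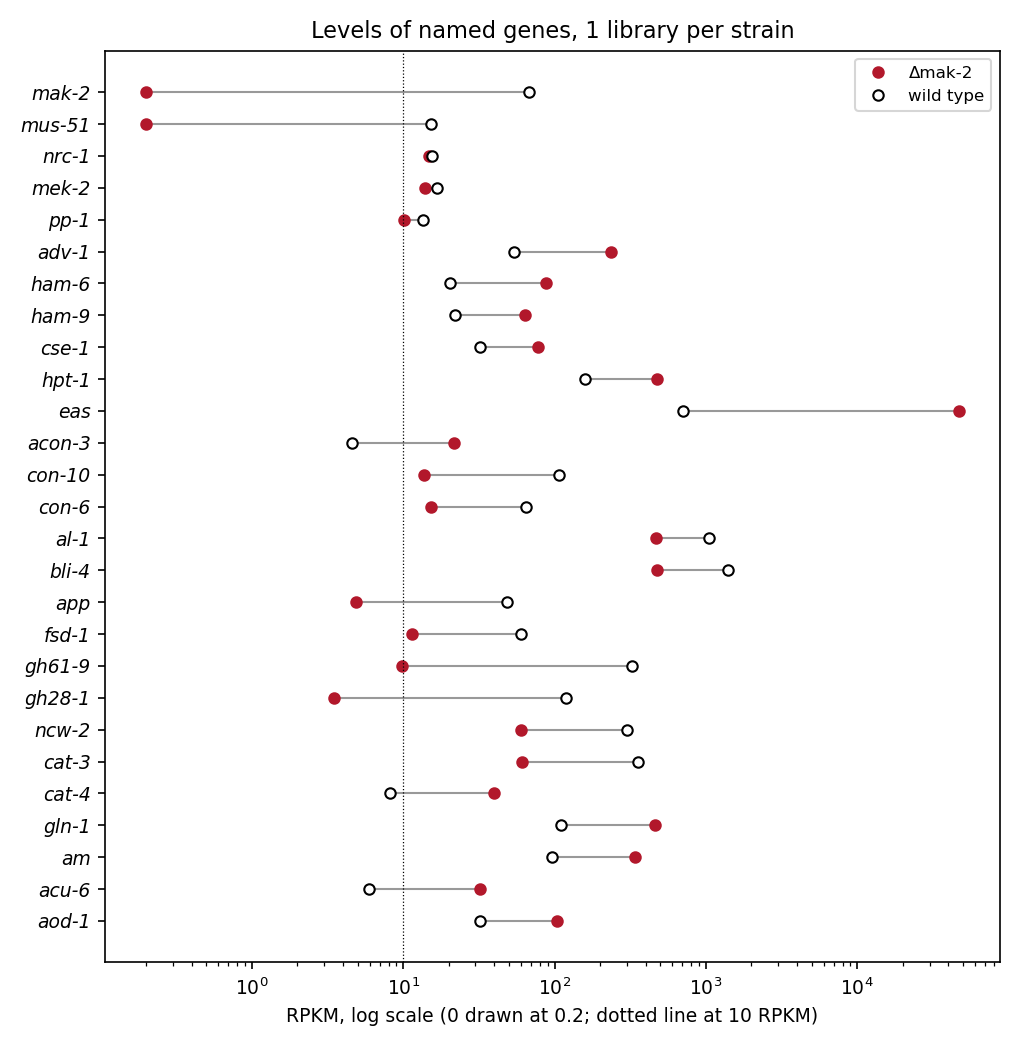
RPKM on a log scale for 27 genes described in the text, with the Δ*mak-2* library as filled points and the wild-type library as open points, 1 library per strain and 0 drawn at 0.2. *eas* differs most among the raised genes (47036 and 703 RPKM), while *nrc-1* (14.9 and 15.5 RPKM) has overlapping points.

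Light-responsive genes were among those lowered in Δ*mak-2* hyphae. In *N. crassa* the white collar complex of WC-1 and WC-2 senses blue light and switches on carotenoid synthesis, conidiation genes and its own repressor VVD. Of 277 genes annotated to the response to light stimulus, 45 were lowered (16.2%, against 6.41% of all genes compared) and 17 were raised (6.14%, against 7.26%), with a median ratio of 0.889. The 45 include *mus-51*, which had 0 reads in Δ*mak-2*. The lists overlap, and *app*, *sub-1*, *crf5-1*, *con-6*, *con-10* and *cat-2* among the 45 are also counted in other lists. Dividing ratios by length class gave 58 lowered and 13 raised, and setting β-tubulin equal gave 34 lowered and 27 raised. Genes of the receptor system itself differed little: *wc-1* had 10.5 RPKM in Δ*mak-2* and 12.4 in the wild type (0.842, 0.637 to 1.11), and *vvd* had 1718 and 1753 RPKM (0.980, 0.930 to 1.03).

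Genes of carotenoid synthesis had ratios on either side of the threshold. *al-1*, the phytoene dehydrogenase, had 465 RPKM in Δ*mak-2* and 1049.8 in the wild type, a ratio of 0.443 (0.422 to 0.465). *al-3*, the geranylgeranyl diphosphate synthase, had 41.8 and 87.2 RPKM (0.479, 0.400 to 0.573). *al-2*, which makes phytoene, had 1769 and 3479 RPKM, a ratio of 0.509 (0.495 to 0.522), just above the threshold, and *cao-2*, a carotenoid cleavage oxygenase, had a ratio of 0.537 (0.503 to 0.573). *ylo-1*, the aldehyde dehydrogenase of the last step to neurosporaxanthin, had 37.8 RPKM in Δ*mak-2* and 44.05 in the wild type (0.858, 0.699 to 1.05). The blue-light-induced gene *bli-4* had 475 RPKM in Δ*mak-2* against 1399 in the wild type (0.340, 0.321 to 0.360), and the cryptochrome gene *cry* had 30.7 against 73.0 RPKM (0.421, 0.353 to 0.501). With β-tubulin set equal, *al-1* and *al-3* were no longer below 0.5 (0.526 and 0.569), and *cry* was just below it (0.499).

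Genes of female development differed in hyphae that had not been induced. Among 7 such genes compared 3 were lowered (42.9%, against 6.41% of all genes compared) and none raised (against 7.26%). *app*, which encodes an abundant perithecial protein, had 4.91 RPKM in Δ*mak-2* against 48.3 in the wild type, a ratio of 0.102 (0.0526 to 0.181), on 13 against 116 reads. *fsd-1*, a transcription factor of female sexual development, had 11.4 against 60.4 RPKM, a ratio of 0.189 (0.145 to 0.242), and *sub-1*, a GATA-type regulator that is also light-responsive, had 12.5 against 29.0 RPKM (0.431, 0.299 to 0.614). With β-tubulin set equal *sub-1* was at 0.512, which left 2 of the 7 lowered. The velvet gene *ve-1* had 76.7 and 79.4 RPKM, a ratio of 0.966 (0.831 to 1.12), and the ratios of *tcf-27*, *asd-4* and *fmf-1* were 0.935, 1.001 and 1.09. The melanin synthesis gene *scy-1*, scytalone dehydratase, had 8.64 RPKM in Δ*mak-2* and 35.9 in the wild type (0.241, 0.120 to 0.451) and was the only one of 7 melanin genes above 10 RPKM in hyphae. *app* and *fsd-1* were also lowered in Δ*mak-2* at the protoperithecial stage, with ratios of 0.00147 and 0.165. The protoperithecial markers *app*, *poi-2*, *fsd-1*, *per-1* and *asd-1* summed to 19.6 RPKM in Δ*mak-2* hyphae and 112 RPKM in wild-type hyphae, against 3094 RPKM in wild-type protoperithecial cultures. The sum in wild-type hyphae was nearly all *app* and *fsd-1*, so it adds little to their ratios above. *poi-2* went the other way on few reads, with 3.28 RPKM in Δ*mak-2* and 1.81 in the wild type (interval of the ratio 0.565 to 6.77).

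The genes of cell wall proteins and wall-remodelling enzymes also held lowered members. Of 21 genes for cell wall synthesis and remodelling 5 were lowered (23.8%, against 6.41% of all genes compared) and none raised (against 7.26%), with a list median of 0.728. Of 19 genes annotated to the hyphal cell wall 6 were lowered (31.6%) and 1 raised (5.26%), and 3 were lowered and 2 raised with β-tubulin set equal. These lists overlap, since *ncw-1*, *ncw-2* and *acw-8* are lowered members of each. The other lowered genes of the hyphal cell wall list were *acw-9*, *cat-3* and *gh16-1*. Of these, *gh16-1* is counted again among the gh symbols below and *cat-3* is named again among the catalases. *ncw-2*, a non-anchored wall protein, had 60.03 RPKM in Δ*mak-2* against 302 in the wild type, a ratio of 0.199 (0.176 to 0.225). *ncw-1* had 166 against 376 RPKM (0.441, 0.410 to 0.474). Among GPI-anchored wall proteins *acw-8* had 1263 RPKM in Δ*mak-2* and 2674 in the wild type (0.472, 0.460 to 0.485). *gel-4*, a β-1,3-glucanosyltransferase, had 83.7 against 182 RPKM (0.459, 0.407 to 0.516), and *crf5-1*, of a family that links chitin to glucan, had 55.6 against 134 RPKM (0.415, 0.368 to 0.467). Setting β-tubulin equal left *ncw-2* and *crf5-1* below 0.5 (0.236 and 0.492), and division by length class put *acw-8* at 0.504. The chitinase gene *chit-1* went the other way, with 144 RPKM in Δ*mak-2* against 25.4 in the wild type, a ratio of 5.67 (5.001 to 6.45). The catalytic subunit of glucan synthase, *fks*, had 31.1 and 45.2 RPKM, a ratio of 0.688 (0.614 to 0.771).

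Several secreted hydrolases were among the most lowered genes. *gh28-1*, of the polygalacturonase family GH28, had 3.50 RPKM in Δ*mak-2* and 118 in the wild type, a ratio of 0.0296 (0.0147 to 0.0537). *gh61-9*, of the lytic polysaccharide monooxygenases, had 9.86 and 323 RPKM, a ratio of 0.0305 (0.0203 to 0.0441), whereas at the protoperithecial stage it was at 2.96 times the wild type. *gh16-1* had 47.3 RPKM in Δ*mak-2* against 228 in the wild type (0.207, 0.182 to 0.235), and *gh3-1* had 39.3 against 144 RPKM (0.274, 0.239 to 0.313). The β-1,6-glucanase gene *neg-1* had 2.90 against 20.5 RPKM, and the acid phosphatase gene *pho-3* had 16.4 against 159 RPKM, ratios of 0.141 (0.0701 to 0.262) and 0.103 (0.0794 to 0.132). Of 22 genes with a gh symbol, a family put together after values were seen, 5 were lowered (22.7%, against 6.41% of all genes compared) and 1 raised (4.55%, against 7.26%). The carbon catabolite repressor gene *cre-1* had 173 RPKM in Δ*mak-2* against 389.7 in the wild type (0.443, 0.413 to 0.476), a ratio of 0.526 with β-tubulin set equal, and the cellobiohydrolase gene *gh6-2* had 11.03 and 14.3 RPKM (0.773, 0.510 to 1.17).

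Among the genes raised were several of nitrogen metabolism. Of 9 genes for nitrate assimilation and nitrogen regulation 4 were raised (44.4%, against 7.26% of all genes compared) and none lowered, with a list median of 1.57. *gln-1*, a glutamine synthetase subunit, had 458 RPKM in Δ*mak-2* and 109.6 in the wild type, a ratio of 4.18 (3.75 to 4.66), and *am*, the NADP-specific glutamate dehydrogenase, had 339 and 96.1 RPKM (3.53, 3.16 to 3.96). The nitrate reductase gene *nit-3* had 30.8 against 11.96 RPKM (2.58, 2.02 to 3.30), and the nitrate transporter gene *nit-10* had 723 against 349.5 RPKM (2.07, 1.95 to 2.20), a ratio that was below 2 with upper-quartile scaling (1.93) and after division by length class (1.98). The regulator *nit-2* had 59.5 and 66.3 RPKM, a ratio of 0.896 (0.715 to 1.12). In Δ*mak-1* hyphae, set against the same wild-type library, *gln-1* and *am* had ratios of 3.44 and 3.67 and *nit-10* had 0.794.

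Single genes of carbon metabolism, respiration and stress responses also differed. *acu-6*, phosphoenolpyruvate carboxykinase, had 32.0 RPKM in Δ*mak-2* and 5.97 in the wild type, a ratio of 5.36 (3.70 to 8.01), while the glyoxylate cycle gene *acu-3*, isocitrate lyase, had 55.0 and 67.3 RPKM (0.818, 0.699 to 0.956). *aod-1*, the alternative oxidase, had 103 against 32.1 RPKM (3.22, 2.55 to 4.11). Among the catalases *cat-3* had 60.9 RPKM in Δ*mak-2* against 355 in the wild type (0.171, 0.154 to 0.190) and *cat-2* had 135 against 434 RPKM (0.312, 0.291 to 0.335), whereas *cat-4* had 40.04 against 8.18 RPKM (4.90, 3.36 to 7.33). *cat-1*, the conidial catalase, had a ratio of 0.529 (0.511 to 0.549). Of 11 heat shock and chaperone genes 1 was lowered (9.09%, against 6.41% of all genes compared) and none raised (against 7.26%). The count is near those shares and too small to be set apart from them. The lowered gene was *hsf-1*, the heat shock factor, with 16.7 against 34.95 RPKM (0.477, 0.377 to 0.602). After division by length class none of the 11 was below 0.5.

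Groups of housekeeping genes differed in how many members were called, beside 13.7% of all genes compared. None of 7 cytoskeleton genes was called, with a median of 0.900, nor any of 28 oxidative phosphorylation genes (1.04), 30 proteasome genes (1.16), 30 genes for protein processing in the endoplasmic reticulum (1.02) or 28 tRNA-charging genes (1.03). The 7 cytoskeleton genes are too few for their count to be set apart from that share. Of 83 ribosomal protein genes 2 were raised (2.41%, against 7.26% of all) and none lowered (against 6.41%), with a median of 1.06. Ribosome biogenesis genes had 3 of 20 raised (15%, against 7.26% of all genes compared) and none lowered, with a median of 1.29. Spliceosome genes had 6 of 47 raised (12.8%, against 7.26%) and none lowered, with a median of 1.34, and 2 of 47 were raised once ratios were divided by length class. Components of mitochondrial protein import, named by their tim, tom and tob symbols, were grouped after values were seen. Of 21 genes with these symbols 18 were above 10 RPKM in either library, with ratios from 1.15 to 3.06. The others, *tim54*, *tim22* and *tom70*, had ratios of 0.832, 1.21 and 1.34. The raised genes *tim23*, *tim44* and *tob38* were above 10 RPKM only in the mutant, so the limit itself favoured raised members. In this family 6 were raised (33.3%, against 7.26%), *tim10* among them, with 369 RPKM in Δ*mak-2* and 159 in the wild type (2.31, 1.94 to 2.77). No whole interval lay above 2, and division by length class left 4 above 2 and a median of 1.41.

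**Figure D4:**
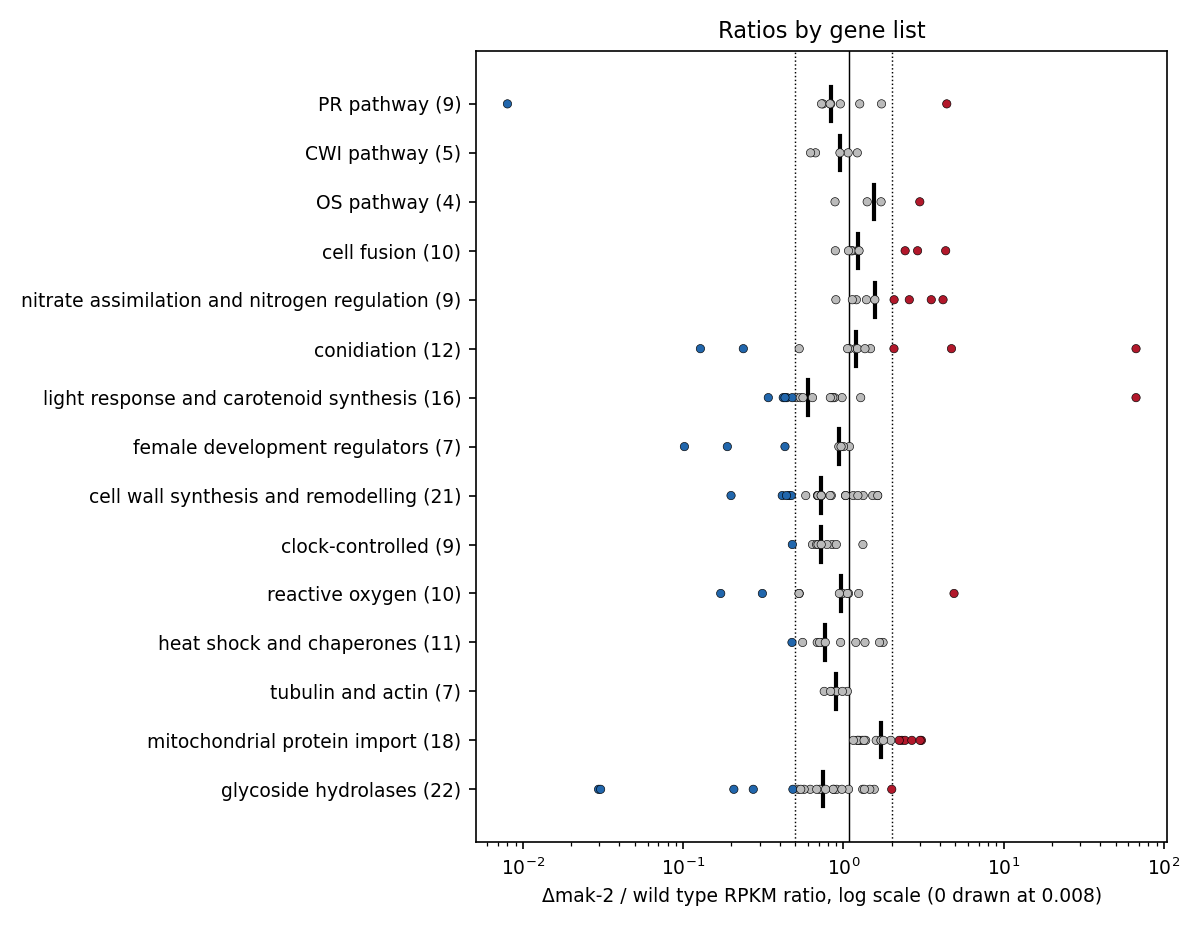
Ratio of RPKM in Δ*mak-2* to wild type in vegetative hyphae (log scale, 0 drawn at 0.008) for the genes above 10 RPKM in 15 lists, with the number of genes in brackets. Points are genes, short bars list medians, the solid line the median of all 4917 genes (1.08) and dotted lines 0.5 and 2; the nitrogen list has its median at 1.57 and the light and carotenoid list at 0.600.

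Of the 672 called genes 571 carry no symbol, but only 766 of all 4917 genes compared carry one, so this is not particular to the called genes. The highest ratio among genes with reads in both libraries was that of NCU00848, with 293 RPKM (1308 reads) in Δ*mak-2* and 3.21 RPKM (13 reads) in the wild type, 91.3-fold (53.2 to 172). Its neighbours NCU00847, NCU00849 and NCU00850 were raised with it, by ratios of 2.15, 3.06 and 49.9. The intervals of NCU00847 and NCU00849 reached below 2, that of NCU00849 on 27 against 8 reads. The interval of NCU00850 was 8.60 to 2008, on 55 reads in Δ*mak-2* against 1 in the wild type. *cut-1* had 408 RPKM in Δ*mak-2* and 25.5 in the wild type, a ratio of 15.99 (13.1 to 19.7), and the adjacent *gcy-1*, whose yeast counterpart is a glycerol dehydrogenase, had 606 and 106 RPKM, a ratio of 5.71 (5.03 to 6.51). NCU09272 and NCU09274 were raised 10.3-fold and 26.1-fold, NCU00754 17.2-fold and NCU09734 14.7-fold. On the lowered side NCU09650 had 1 read in Δ*mak-2* and 68 in the wild type (0.0134, 0.000333 to 0.0769), NCU10865 had 3.81 against 144 RPKM (0.0264, 0.0139 to 0.0456) and NCU09267 had 4.99 against 128 RPKM (0.0390, 0.0283 to 0.0525). The most abundant lowered gene was NCU00399, with 1602 RPKM in Δ*mak-2* and 9109 in the wild type, a ratio of 0.176 (0.170 to 0.182).

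Some changed genes lay side by side. Of the positions next to a lowered gene that held a compared gene, 80 of 282 held a lowered one (28.4%, against 6.41% of all). Of those next to a raised gene 52 of 365 held a raised one (14.2%, against 7.26%). A gene can fill more than 1 such position, so these are not counts of distinct genes. Of 296 lowered genes placed on the chromosomes 76 had a lowered neighbour, and of 342 raised genes 47 had a raised neighbour. The longest run held 5 lowered genes around *gh3-1* with at most 1 other gene between neighbours, NCU03639, NCU03640, NCU03643 and NCU03645 being the others, with ratios from 0.274 to 0.481. The intervals of NCU03639, NCU03640 and NCU03645 reached above 0.5, and that of NCU03640, on 7 against 15 reads, was 0.146 to 1.10. A run of 4 comprised NCU09772, NCU09773, NCU09775 and NCU09776, with ratios from 0.0605 to 0.399, of which NCU09775, annotated with arabinofuranosidase activity, had 269 RPKM in Δ*mak-2* against 1325 in the wild type. The interval of NCU09772 reached above 0.5 (0.288 to 0.547). Genes that overlap or whose strand was not used in counting could share reads, and the part of this in neighbouring ratios was not tested.

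The same mutation was measured at the protoperithecial stage in libraries that share no RNA with the vegetative ones. Of the 315 genes lowered in hyphae 84 were lowered there too (26.7%, against 7.06% of all 4917 genes), which is 24.2% of the genes lowered at that stage, and 44 were raised (13.97%, against 7.5%). Of the 357 raised genes 47 were raised there as well (13.2%), 12.7% of the genes raised at that stage, and 28 were lowered (7.84%). The median ratio at the protoperithecial stage was 0.765 for the genes lowered in hyphae, 1.20 for those raised and 1.02 for the rest. With whole intervals beyond the threshold at both stages, 35 genes were lowered in both, among them *mak-2*, *mus-51*, *app*, *fsd-1*, *scy-1*, *ncw-1* and *neg-1*, and 21 were raised in both, among them *eas*, *acon-3*, NCU00848 and the G protein-coupled receptor gene *gpr-6* (50.9 against 7.96 RPKM in hyphae).

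Opposite changes at the 2 stages were found for 28 genes under the same interval rule, 20 lowered in hyphae and raised at the protoperithecial stage and 8 the reverse. *al-1*, *con-10*, *con-6*, *bli-4* and *mig-12* belonged to the 20, with ratios at the protoperithecial stage of 82.4, 19.2, 27.3, 19.4 and 30.7. Of the 45 light-responsive genes lowered in hyphae 17 were raised at the protoperithecial stage (37.8%, against 7.5% of all 4917 genes). There 7 of the 45 were lowered (15.6%, against 7.06% of all). The light-responsive genes as a whole were often raised at that stage: of all 277 compared, 90 were raised and 33 lowered. Of the 215 light-responsive genes that were neither lowered nor raised in hyphae, 68 were raised at that stage (31.6%) and 24 lowered (11.2%), so these shares lay near those of the light-responsive genes in general. *cut-1*, *gcy-1*, *gln-1* and the sodium pump gene *ena-1* were among the 8, with ratios of 0.372, 0.246, 0.462 and 0.441 there.

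**Figure D5:**
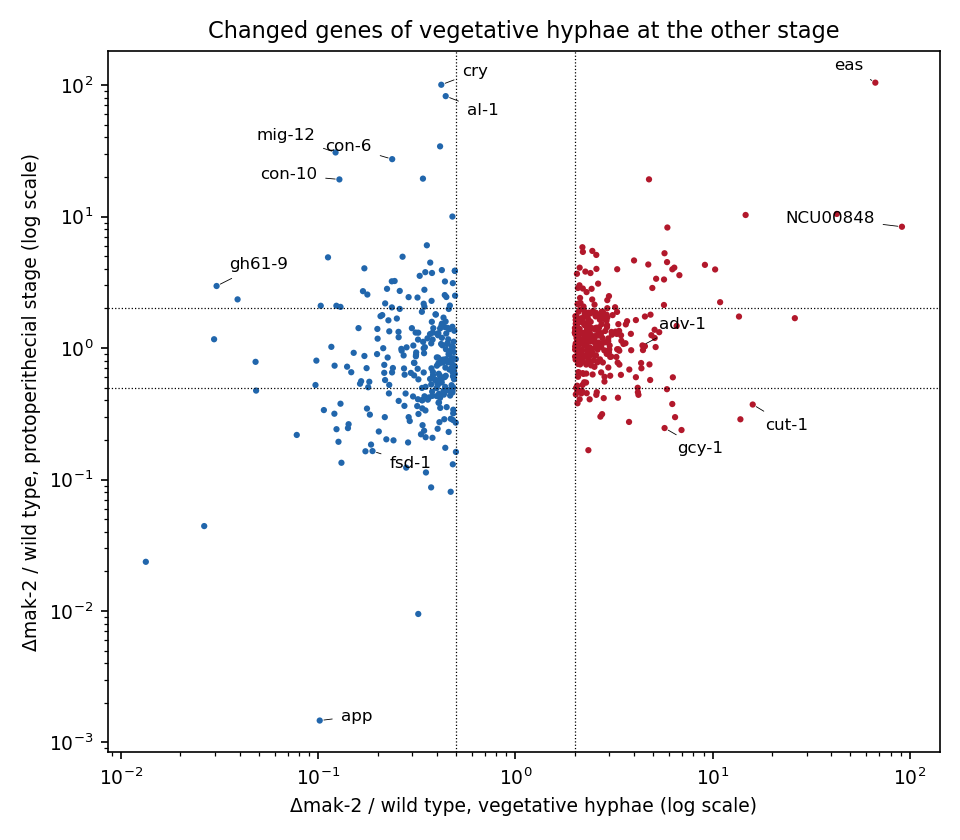
Ratio of Δ*mak-2* to wild type at the protoperithecial stage (vertical) against the ratio in vegetative hyphae (horizontal), both on log scales, for 602 of the 672 changed genes, those with reads in all 4 libraries and above 10 RPKM at the protoperithecial stage. Dotted lines mark 0.5 and 2; *eas* is high at both stages, *app* low at both, and *al-1*, *con-6* and *con-10* are low in hyphae and high at the protoperithecial stage.

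Beside these values, hyphae of the Δ*mak-1* mutant, set against the same wild-type library, had a median ratio of 0.572 for the genes lowered in Δ*mak-2*, 1.93 for those raised and 1.26 for the others. Because both ratios contain that library, a low or high wild-type value moves both in the same direction, and the likeness was not tested. Values differed for single genes: *ncw-2* and *gh16-1*, lowered in Δ*mak-2*, had 839 and 790.3 RPKM in Δ*mak-1* hyphae, 2.78 and 3.46 times the wild type, and *fsd-1* had 58.6 RPKM in Δ*mak-1*, 0.9695 of the wild type. *chit-1*, raised in Δ*mak-2*, had 7.47 RPKM in Δ*mak-1*, 0.294 of the wild type.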

How the data were processed

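Pooled RNA of mycelia from both stages was sequenced on an Illumina HiSeq2000 with single-end reads, and CASAVA 1.8 is named in the submitters' processing notes. The authors deposited RPKM values per gene for 6 libraries. For the aligner, read counter, use of strand and genome build, details were not given in the sources used here. Columns of the deposited table also hold the authors' own ratios between libraries, which were not used. Mapped reads per library and reads per gene were recovered from the steps of the RPKM values for 8913 of 9872 entries and for all 4917 genes compared; where the reads of a gene in all libraries share a common factor, the recovered counts are too small by that factor and the interval too wide. Gene symbols and gene order came from RefSeq (assembly NC12), with 8976 entries matched by locus, 185 by an older tag and 711 not matched.

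Ratios of RPKM in Δ*mak-2* to wild type were computed without a pseudocount. With 1 library of mixed RNA per strain and stage no test was possible, and exact 95% intervals were computed from the read counts. Genes named were *mak-2* and the 5 nearest genes on each side, members of the gene lists above 10 RPKM, the 15 highest and 15 lowest ratios among changed genes with 50 reads or more in 1 library and the whole interval beyond the threshold, genes with no read in 1 library and at least 50 in the other, the 10 most abundant changed genes in each direction, and those at the 10 RPKM limit. Further genes named from annotation terms, symbol families, neighbouring runs or the other stage (among them *chit-1*, *neg-1*, *gpr-6* and *gcy-1*) were picked with their values in view. The genes compared and the lists were chosen with earlier results of these data known, and the families by symbol were added after values were seen. Other scalings, RPKM minimums, fold thresholds and added constants were tried, of which the scaling by length class was chosen after seeing the data. The scripts were tested on simulated data. Software was scipy 1.17.1 and pandas 2.3.3 on Python 3.11.15, with numpy 2.4.6, and figures were drawn in matplotlib 3.10.9.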

Additional observations from a re-analysis of the deposited data

Results flagged for a closer look

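Among the genes named, 14 had whole counting intervals beyond the 2-fold threshold in opposite directions at the 2 stages of Δ*mak-2* against wild type. The difference between stages was not tested, since each stage has 1 library per strain. Of those lowered in hyphae, *gh61-9* had a ratio of 0.0305 in hyphae and 2.96 at the protoperithecial stage, *mig-12* 0.122 and 30.7, *con-10* 0.128 and 19.2, *cat-3* 0.171 and 4.04, *mip-1* 0.236 and 3.22, and *con-6* 0.237 and 27.3. In the same direction *mig-9* had 0.259 in hyphae and 2.72 at the protoperithecial stage, *bli-4* 0.340 and 19.4, *crf5-1* 0.415 and 34.2, and *al-1* 0.443 and 82.4. Raised in hyphae and lowered at the protoperithecial stage were *gln-1* (4.18 and 0.462), *ena-1* (4.21 and 0.441), *gcy-1* (5.71 and 0.246) and *cut-1* (15.99 and 0.372).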

How the results depend on the processing

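The median ratio of 1.08 was 1.01 with upper-quartile scaling, 1.28 with β-tubulin set equal and 1 by construction after division by length class. The 357 raised genes became 656 with β-tubulin set equal and 237 after division by length class. A minimum of 1 RPKM gave 848 lowered and 762 raised genes, no minimum gave 1097 and 991, and adding 10 RPKM to every value gave 163 and 160. A threshold of 1.5-fold gave 683 lowered and 980 raised genes, a threshold of 3-fold gave 136 and 105, and requiring the whole interval gave 152 and 117. The other alternatives moved these counts by less than 1.5 times. None of 182 named genes changed direction under any of 14 alternatives, but for called genes this was fixed in advance. The scalings shifted ratios by far less than 2-fold, minimums and thresholds left ratios unchanged, and added constants only drew them toward equality. The absence of reversals therefore does not show that the calls were stable. No paired analysis was possible because each strain has 1 library per stage and the labels carry no replicate numbers, and for the same reason no library could be left out. The planned search of promoters for motifs was not run. Depth limits the low genes: the median gene at 10 RPKM had about 39.1 reads in Δ*mak-2* and 35.5 in the wild type.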
